A study of Saccharomyces cerevisiae with 4 samples.

Results

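The genes described here encode the nuclear subunits of the peripheral stalk and membrane part of the yeast mitochondrial ATP synthase: ATP4, ATP5, ATP7 and ATP14 of the stalk, and ATP17, ATP18, ATP19 and ATP20 of the membrane part. They were taken by common gene name from the deposited table, where all 8 were found among 6692 genes. Ribosome footprints, the stretches of message that ribosomes shield from nuclease, were counted in budding yeast (Saccharomyces cerevisiae, S288C background). All libraries came from a single labelled genotype. In it the biotin ligase BirA was joined through mVenus to Om45, a protein of the mitochondrial outer membrane (om45::OM45-mVenus-BirA::HIS5), and the 2 copies of the RPL16 gene encoded a tag with the AVI peptide that BirA biotinylates (rpl16a::RPL16a-HA-TEV-AVI and rpl16b::RPL16b-HA-TEV-AVI). The genotype also lists leu2::pPGK1-BirA::LEU2, a BirA gene behind the PGK1 promoter that is not described as tied to Om45, and the alleles ura3Δ0, met15Δ0 and his3Δ1. Whether the PGK1-driven ligase was present was not tested here. A ligase not tied to Om45 could also mark ribosomes elsewhere, so enrichment is that of the strain as labelled. Cells grew in synthetic medium with 0.125 ng/ml biotin, and 10 nM biotin was given for 2 min to mark ribosomes near the ligase. The 4 libraries were a streptavidin pulldown of marked ribosomes and an input of all ribosomes from cells given 100 µg/ml cycloheximide, an inhibitor of elongation, for 2 min before biotin, and the same pair from cells without the drug. Each group held 1 library, so no value here has a replicate check and no test was made. The drug and any other difference between the cultures cannot be told apart.

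The ATP synthase makes ATP from the proton gradient across the mitochondrial inner membrane. Its F1 head, which carries the catalytic sites, projects into the matrix, and a ring of c subunits turns in the membrane part, Fo. The peripheral stalk holds the head still against the turning ring. In yeast a few Fo subunits are made inside mitochondria, while the stalk and the small membrane subunits are made by cytosolic ribosomes and imported. Import into the matrix or inner membrane is often directed by a presequence at the amino end of the precursor.

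In the stalk, Atp4 (subunit b) is anchored in the membrane and runs up along the head. Atp5, the oligomycin sensitivity-conferring protein, joins the stalk to the top of F1, and Atp7 (subunit d) and Atp14 (subunit h) complete it. In the membrane, Atp17 (subunit f), Atp18 (subunit i/j), Atp19 (subunit k) and Atp20 (subunit g) are small proteins of the Fo part, and Atp20 is needed for the enzyme to form dimers. The deposited annotation places all 8 in the inner membrane.

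In the assembly R64 of the reference gene table (S288C), ATP4 (YPL078C) lies on chromosome XVI from 408010 to 408744 and ATP20 (YPR020W) on the same chromosome from 599870 to 600217. ATP5 (YDR298C) lies on chromosome IV from 1058176 to 1058814 and ATP17 (YDR377W) on that chromosome from 1228611 to 1228916. ATP7 (YKL016C) spans chromosome XI from 407465 to 407989, and ATP14 (YLR295C) chromosome XII from 721999 to 722373. ATP18 (YML081C-A) spans chromosome XIII from 103983 to 104162, and ATP19 (YOL077W-A) chromosome XV from 185438 to 185644. The annotation lists the 8 genes as protein-coding, and the annotated length of each matched the listed protein plus a stop codon. None overlapped another gene of the reference table, and none had the same counts as another gene.

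The precursors are short. Atp4 has 244 residues, Atp5 has 212, Atp7 has 174 and Atp14 has 124. Of the membrane subunits, Atp20 has 115 residues, Atp17 has 101, Atp19 has 68 and Atp18 has 59. The MitoProt score, which predicts a mitochondrial presequence from the protein sequence on a scale up to 1, was at least 0.5 for 6 of the 8. It was 0.9981 for Atp17, 0.9924 for Atp5, 0.9879 for Atp4, 0.9743 for Atp14, 0.8520 for Atp20 and 0.7686 for Atp7. Atp18 at 0.2651 and Atp19 at 0.1066 were the low scorers. Atp14 was also the 1 member with a predicted signal sequence for the endoplasmic reticulum.

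Reads in nuclear genes numbered from 15704610 to 37466743 per library. Enrichment is pulldown over input on a log2 scale, with each library scaled to these reads and the median gene of that comparison set to 0. Before centring the median gene stood at -0.73 on the scale of library totals with cycloheximide and at -0.03 without. Bracketed ranges are 95% intervals and cover counting error only. A gene counted as higher or lower when it lay 2-fold or more from the median gene, and genes needed 100 reads or more in the pair of libraries.

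With cycloheximide, 3 of the 4 stalk genes and none of the 4 membrane genes had an enrichment at least 2-fold above the median gene. Of all 5464 genes measured, 12.5% did, and of 1098 nuclear genes that the authors annotate as mitochondrial, 44.5% did. The 3 of 8 members make 37.5%, between these shares. The members' median was 0.14, against 0.55 for the annotated mitochondrial genes. No member was 2-fold lower, against 0.201% of all genes.

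ATP4 had 60165 reads in the pulldown and 5486 in the input with cycloheximide, and 5721 in the pulldown and 3514 in the input without it. With the drug this was an enrichment of 3.45 (3.41 to 3.49), or 10.9-fold relative to the median gene. It ranked 108 of the 5464 genes. Among the 8 members it had the most pulldown reads in both conditions.

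ATP5 had 26494 pulldown and 4126 input reads with cycloheximide, and 3015 pulldown and 3355 input reads without it. Its enrichment with the drug was 2.68 (2.63 to 2.72), or 6.39-fold, at rank 292. ATP14 had 11082 pulldown and 3645 input reads with cycloheximide, and 1955 and 2245 without it. Its enrichment with the drug was 1.60 (1.54 to 1.65), or 3.02-fold, at rank 528. On the uncentred scale of library totals it stood at 0.87, under the 2-fold limit.

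ATP7 stood apart from the other stalk genes. It had 4840 pulldown and 4383 input reads with cycloheximide, and 2332 pulldown and 2776 input reads without it. With the drug its value was 0.14 (0.08 to 0.20). The precursor of Atp7 is 50 residues longer than that of Atp14 and has the lower MitoProt score, 0.7686 against 0.9743. ATP14 stood 1.46 log2 units above ATP7.

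**Figure D1:**
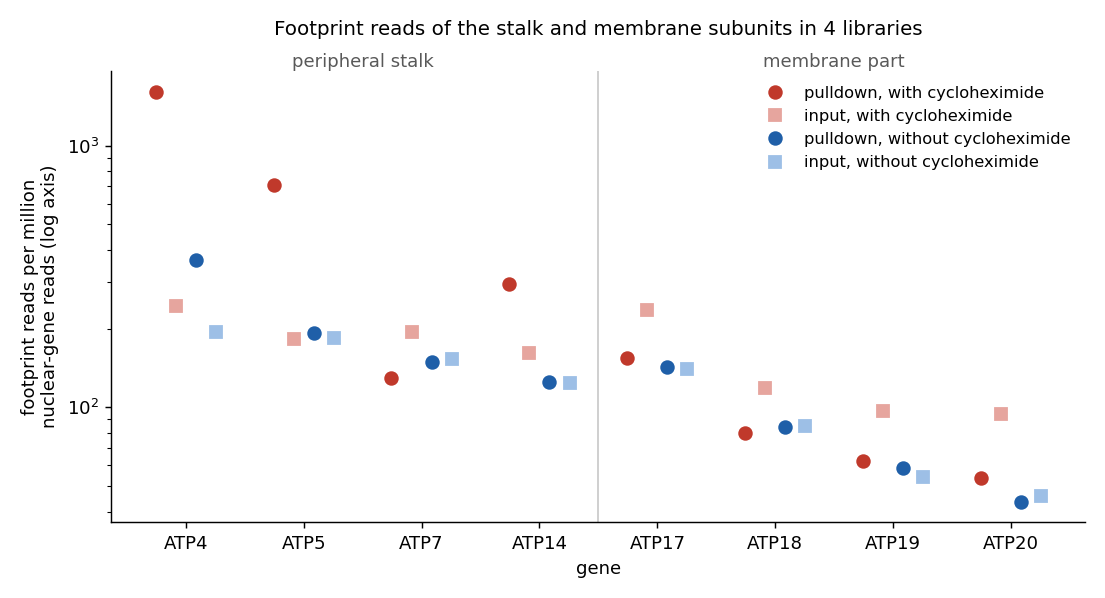
Footprint reads per 1000000 nuclear-gene reads (log axis) of the 8 genes in each of the 4 libraries. With cycloheximide the pulldown (red circles) lies far above the input (pale squares) for ATP4, ATP5 and ATP14 and below it for the other 5 genes, while without the drug only ATP4 shows a clear gap.

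The membrane subunits lay close to the median gene. With cycloheximide ATP17 had 5803 pulldown and 5307 input reads, which gave a value of 0.12 (0.07 to 0.18). ATP18 had 2990 and 2677 reads and a value of 0.15 (0.08 to 0.23). These genes differ widely in MitoProt score, Atp17 having the highest of the 8 and Atp18 the second lowest, and their values with the drug had overlapping intervals.

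ATP19 had 2333 pulldown and 2174 input reads with cycloheximide and a value of 0.09 (0.01 to 0.18). ATP20 had 2007 and 2120 reads and a value of -0.09 (-0.18 to 0.00), the lowest of the 8. In order of enrichment with the drug the genes ran ATP4, ATP5, ATP14, ATP18, ATP7, ATP17, ATP19 and ATP20. The first 4 differed from each other beyond their counting intervals, as did ATP19 from ATP20, whereas the intervals of neighbours from ATP18 to ATP19 overlapped. On library totals the 5 lower genes ran from -0.81 to -0.57, so their position close to the middle is relative to the median gene.

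Without cycloheximide none of the 8 genes was 2-fold above the median gene, against 6.39% of 5148 genes measured and 24.3% of 1072 annotated mitochondrial genes. None was 2-fold lower, against 0.0777% of all genes. ATP4 came nearest, at 0.95 (0.89 to 1.01) or 1.93-fold, and its interval reached the 2-fold limit. ATP5 stood at 0.09 (0.02 to 0.16) and ATP14 at 0.04 (-0.04 to 0.13), and these intervals overlapped. ATP7 stood at -0.01 (-0.09 to 0.07).

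The membrane genes without the drug had 2247 pulldown and 2538 input reads for ATP17, 1323 and 1539 for ATP18, 922 and 984 for ATP19, and 685 and 835 for ATP20. Their values were 0.07 for ATP17, 0.02 for ATP18, 0.15 (0.02 to 0.28) for ATP19 and -0.04 for ATP20. Apart from ATP4, all neighbours in the order of the 8 genes had overlapping intervals without cycloheximide.

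**Figure D2:**
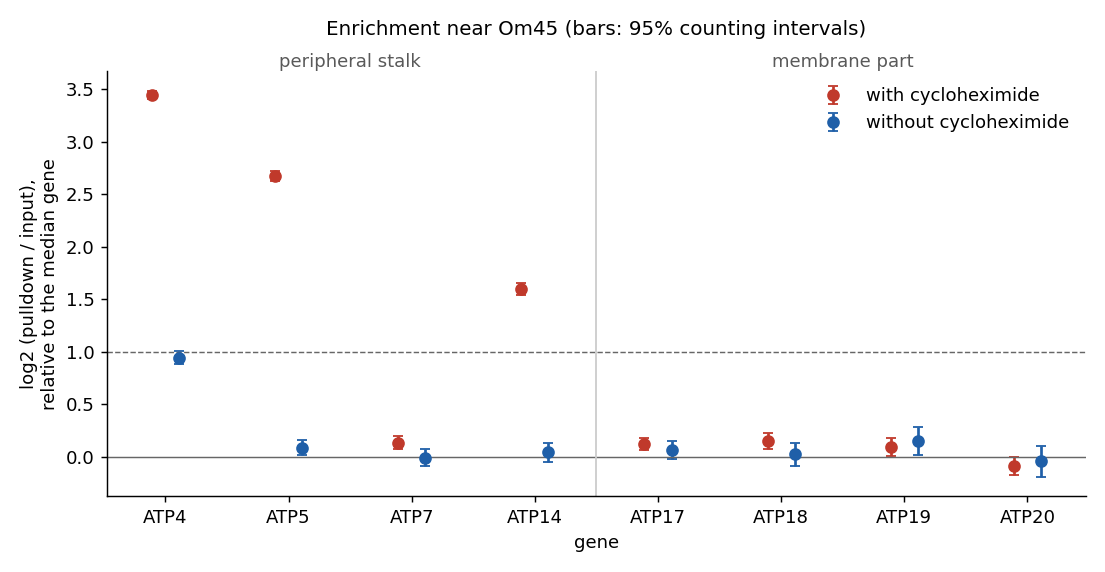
Log2 ratio of pulldown to input relative to the median gene for each of the 8 genes, with cycloheximide (red) and without it (blue); the dashed line marks 2-fold. ATP4, ATP5 and ATP14 lie at 3.45, 2.68 and 1.60 with the drug, and no gene reaches the line without it.

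The difference of the 2 enrichments, with minus without cycloheximide, was at least 2-fold above that of the median gene for 3 of 8 members, against 9.57% of 5141 genes and 38.6% of annotated mitochondrial genes. None was 2-fold lower in this difference, against 0.622% of all genes. The median gene's difference was -0.65 on library totals. ATP5 had a difference of 2.54 (2.46 to 2.63) and ATP4 one of 2.46 (2.39 to 2.53), and these intervals overlapped. Although ATP4 was the more enriched of the pair in each condition, the gap between conditions was therefore not distinguishable between them at this depth. ATP14 followed at 1.51 (1.41 to 1.61). The other 5 genes ran from -0.10 for ATP19 to 0.10 for ATP7. On library totals the difference of ATP14 was 0.86, under the 2-fold limit, and those of the other 5 lay between -0.75 and -0.55, so the direction of ATP7, ATP17 and ATP18 turns with the scale.

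Footprints of all 8 genes together made up 0.309% of nuclear-gene reads in the pulldown with cycloheximide (exact 95% interval 0.307% to 0.311%) and 0.133% in its input (0.131% to 0.134%). Without the drug they made up 0.116% of the pulldown and 0.0979% of the input. ATP4, ATP5 and ATP14 accounted for the larger pulldown share with the drug, at 0.261% of that pulldown and 0.0588% of its input. The other 5 genes made up 0.0480% of the pulldown and 0.0740% of the input with the drug, and 0.0478% of the pulldown and 0.0477% of the input without it.

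The enrichment of the 8 genes was set against protein length and MitoProt score. With cycloheximide, Pearson's r with length over the 8 genes was 0.82 and Spearman's rho 0.64; with MitoProt score r was 0.51 and rho 0.40. Length and score themselves had an r of 0.68 over these genes, and all points come from the same libraries. Over all 1098 annotated mitochondrial genes the order was different, with a rho of -0.04 for length and 0.58 for MitoProt score. Both genes for precursors over 200 residues passed 2-fold, and of the 6 shorter ones ATP14 did.

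Length classes of the other annotated mitochondrial genes with a MitoProt score of at least 0.5 show where the 8 genes stand. With cycloheximide none of 25 such genes for proteins under 100 residues was 2-fold above the median gene. Of those with 100 residues or more but under 200, 26 of 103 were, of those from 200 to under 300 residues 64 of 79 were, and of longer ones 284 of 326 were. Without the drug the numbers were 0 of 23, 6 of 100, 18 of 78 and 175 of 323. For genes scoring under 0.5 the numbers with the drug were 0 of 18, 3 of 69, 20 of 81 and 89 of 389 in the same length classes.

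Narrower classes of 25 residues, chosen after the values were seen, place each stalk gene among annotated genes of its own size and a score of at least 0.5. ATP14 at 1.60 lay above all 16 other genes for proteins of 100 to 124 residues, of which the highest stood at 0.79 and the median at 0.10. Atp14 lies at the upper edge of that class. In the next class, 125 to 149 residues, 4 of 30 genes passed 2-fold and the highest stood at 1.89. ATP7 at 0.14 lay below the lower quartile of 0.18 of the 26 genes for 150 to 174 residues, among which 6 passed 2-fold. ATP5 at 2.68 lay near the upper quartile of 2.71 of the 11 genes for 200 to 224 residues. ATP4 at 3.45 lay above all 21 genes for 225 to 249 residues, of which the highest stood at 3.24. The highest of the class below stood at 3.45 as well, and that of the class for 250 to 274 residues at 3.77. Places within a class therefore depend on where its edges were set.

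The membrane genes lay within or close to the quartiles of genes of their size. In the class of 100 to 124 residues the quartiles were -0.08 and 0.27, so ATP17 at 0.12 lay between them and ATP20 at -0.09 just under the lower one. ATP18 and ATP19, whose scores are under 0.5, had only 6 other annotated genes of such scores in the class of 50 to 74 residues, with a median of 0.21 and quartiles of 0.13 and 0.25. ATP18 at 0.15 lay between these quartiles and ATP19 at 0.09 under the lower one. Over the 15 genes of any score in that class the quartiles were -0.08 and 0.23, and both lay between them. Up to the 124 residues of Atp14, 85 annotated mitochondrial genes were measured with cycloheximide, and the 2 past 2-fold were ATP14 and YLR346C (CIS1 in the reference gene table, a factor of the response to impaired mitochondrial import), a frame for 101 residues at 1.34.

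**Figure D3:**
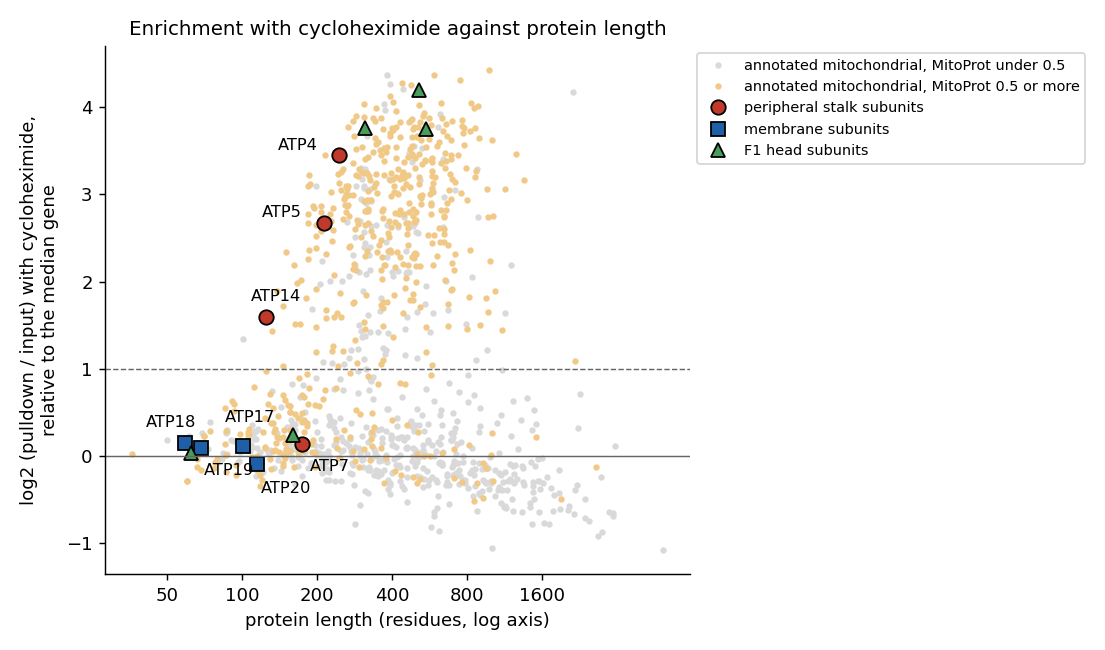
Log2 ratio of pulldown to input with cycloheximide, relative to the median gene, against protein length (log axis) for 1098 nuclear genes annotated as mitochondrial; large symbols are the stalk, membrane and F1 subunits of the ATP synthase. ATP14 at 1.60 lies above all other genes for up to 124 residues. ATP7, whose protein is longer than Atp14 and has a lower MitoProt score, lies at 0.14. Genes for 125 to 149 residues reach 1.89.

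The rest of the complex was read in the same way. Of the F1 head, ATP1, ATP2 and ATP3 (subunits alpha, beta and gamma) stood at 3.75, 4.20 and 3.76 with cycloheximide, and the short subunits ATP16 (delta) and ATP15 (epsilon) at 0.24 and 0.04. Without the drug ATP2 stood at 1.03 and the other 4 between 0.15 and 0.22. ATP4 with the drug was thus lower than the 3 large F1 subunits and higher than the 2 small ones, beyond counting error. TIM11 (subunit e, a partner of Atp20), the inhibitors INH1 and STF1 and the associated factor STF2 encode 84 to 96 residues, and none of the 4 was 2-fold higher in either condition. Their values with the drug ran from -0.07 to 0.14. Of annotated mitochondrial genes for proteins under 100 residues, stalk and membrane genes left out, 0 of 43 passed with the drug and 1 of 41 without. The 4 genes were thus at the level of genes of their size.

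Among 7 genes for factors that assemble the synthase, 5 passed 2-fold with cycloheximide, and 5 did so without it. Of annotated mitochondrial genes 44.5% passed with the drug and 24.3% without, and of all genes 12.5% and 6.39%. Without the drug ATP22, needed for translation of ATP6, stood at 2.72, ATP25 at 2.36, ATP10, which assists assembly of subunit a, at 1.72, and the F1 chaperone ATP11 had an interval of 1.38 to 1.61. ATP12, the other F1 chaperone, passed only narrowly at 1.003 (0.85 to 1.16), and its interval held that of ATP4. On library totals ATP12 stood at 0.97, under the 2-fold limit. ATP23 with 270 residues and a MitoProt score of 0.9849 stood at 0.22 (0.06 to 0.37) with the drug, and FMC1 with 155 residues at 0.06.

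Nuclear subunits of respiratory complexes III and IV, which share the inner membrane with the ATP synthase, were set beside them. Complex III had 4 of 9 genes past 2-fold with cycloheximide, against 44.5% of annotated mitochondrial genes and 12.5% of all genes. These were CYT1 at 3.88, RIP1, the Rieske protein with 215 residues, at 3.45, COR1 at 2.55 and QCR2 at 1.70. The 5 short subunits of complex III ran from -0.14 to 0.05. Complex IV had none of 9, and COX4 was its highest at 0.51. Over the stalk, membrane, F1, associated, assembly, complex III and complex IV genes together, 14 of 15 for proteins over 200 residues passed 2-fold with the drug, ATP23 being the exception. Of 27 for shorter proteins, ATP14 alone passed. The split at 200 residues was chosen after the values were seen. Of the 15, all but ATP12 (0.4758) and ATP25 (0.485) had a MitoProt score of at least 0.5. Among annotated mitochondrial genes of such scores, stalk and membrane genes left out, 81.0% from 200 to under 300 residues and 87.1% of longer ones passed. The 93.3% of the 15 was thus close to the level of such genes. From 100 to under 200 residues 25.2% of such genes passed and under 100 residues 0%, against 3.70% of the 27. These sets are not alike. The 27 include genes scoring under 0.5, such as ATP18 and ATP19, and none encodes more than the 174 residues of Atp7. Of the 26 comparison genes that passed from 100 to under 200 residues, 16 encode more than 174. At 150 to 174 residues 6 of 26 passed, at 125 to 149 residues 4 of 30 and at 100 to 124 residues 0 of 16. The lower share of the 27 therefore cannot be read as a shortfall for their size.

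Footprint density, in reads per 1000000 nuclear-gene reads and per kilobase of coding length, allowed levels to be compared between genes. The number of messages and the number of ribosomes on each cannot be told apart in these counts. In the input with cycloheximide densities ran from 270 for ATP20 to 770 for ATP17, a 2.85-fold range. ATP18 stood at 660, ATP19 at 466, ATP14 at 431, ATP7 at 371, ATP4 at 331 and ATP5 at 287. All neighbours in this order differed beyond counting error except ATP5 and ATP20.

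In the input without the drug the range was 3.56-fold. ATP18 at 470 and ATP17 at 456 were the highest and did not differ beyond counting error. ATP14 stood at 329, ATP7 at 291, ATP5 at 289, ATP4 at 263 and ATP19 at 262, and ATP20 at 132 lay well under the rest. The 4 stalk genes therefore spanned only 263 to 329, while the 4 membrane genes spanned 132 to 470. The lowest member had a higher density than 84.4% of nuclear genes in that library.

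The F1 subunits alpha and beta, of which the head holds several copies each, had input densities of 476 for ATP1 and 566 for ATP2 with cycloheximide. There ATP15 was above both at 945, ATP16 had 447 and ATP3 had 282. Without the drug ATP1 had 568 and ATP2 had 562, above ATP15 at 476 and ATP16 at 329. ATP3 had 292 there, close to ATP7 and ATP5.

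In the pulldown with cycloheximide the order of densities was different. ATP4 had 2185, ATP5 had 1107, ATP14 had 789 and ATP17 had 506, and these were followed by ATP18 at 443, ATP19 at 301, ATP7 at 246 and ATP20 at 154. The range was 14.2-fold, and all neighbours differed beyond counting error. In the pulldown without the drug it was 3.95-fold, from ATP4 at 496 to ATP20 at 125, and ATP4, ATP18 and ATP17 were not separated by their intervals.

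**Figure D4:**
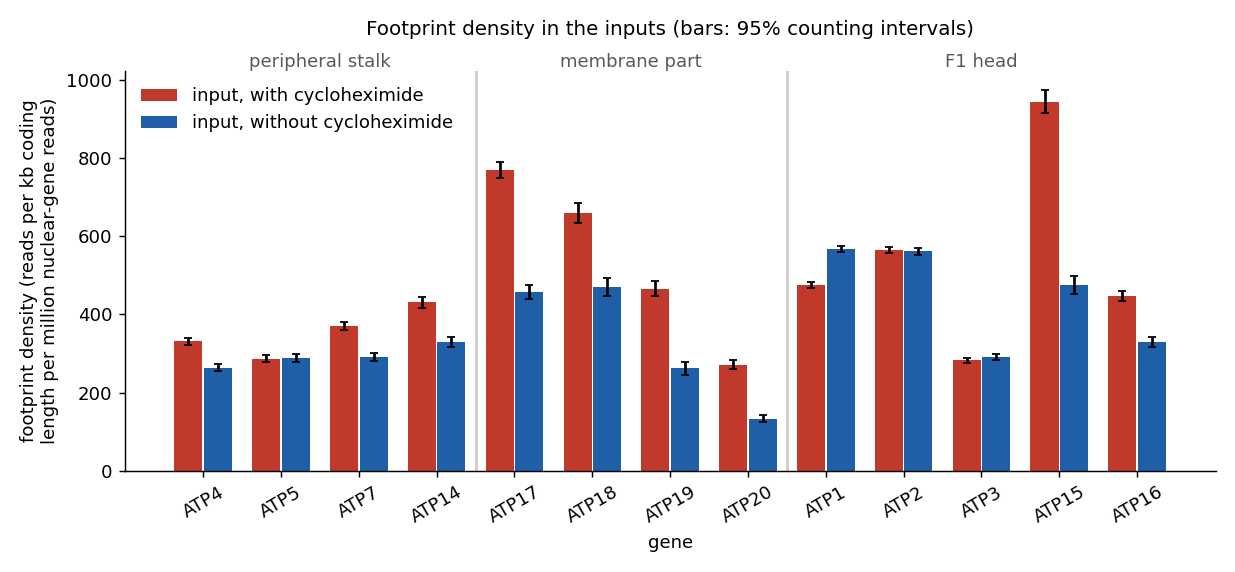
Footprint density of the 8 genes and the 5 F1 subunits in the input with cycloheximide (red) and without it (blue), with 95% counting intervals. Without the drug the 4 stalk genes lie between 263 and 329, while ATP20 stands at 132 and ATP18 at 470.

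Between the inputs, with over without cycloheximide, none of the 8 genes reached 2-fold from the median gene in either direction. Relative to that median, which stood at 0.74 on library totals, 10.6% of 5380 genes lay 2-fold or more above and 10.4% lay 2-fold or more below. On the centred scale all 4 stalk genes were lower, at -0.75 (-0.81 to -0.68) for ATP5, -0.40 for ATP4, -0.39 for ATP7 and -0.35 for ATP14. On library totals ATP5 stood at -0.01 and the other 3 between 0.33 and 0.39, so their direction turns with the scale.

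Among the membrane genes ATP20 stood at 0.30 (0.18 to 0.42), ATP19 at 0.10 (-0.01 to 0.21), ATP17 at 0.02 (-0.05 to 0.09) and ATP18 at -0.25 (-0.34 to -0.16). The intervals of the first 3 lay above those of all 4 stalk genes. ATP18 overlapped with ATP14 and ATP7. On library totals ATP20 passed 2-fold at 1.03, as did 1875 of 5380 genes. ATP19 stood at 0.83 and ATP17 at 0.75 on that scale, and ATP18 turned to 0.49. Over the 8 genes r with length was -0.66 and rho -0.76. Among all measured nuclear genes the median of this ratio was 0.45 for proteins under 100 residues, 0.18 from 100 to under 200, 0.12 from 200 to under 300 and -0.08 for longer ones, so shorter genes had higher values across the table. ATP18 and ATP19 both lay under the median of their class.

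**Figure D5:**
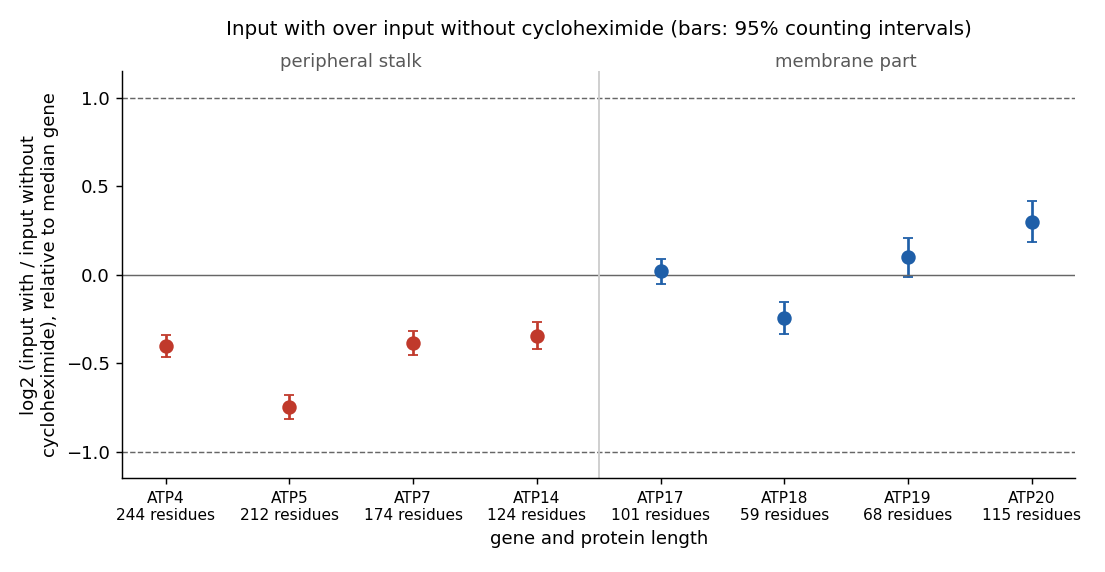
Log2 ratio of the input with to the input without cycloheximide, relative to the median gene, for each of the 8 genes, with 95% counting intervals and 2-fold limits dashed. The stalk genes lie between -0.75 and -0.35 and the membrane genes between -0.25 and 0.30.

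The authors' deposited table calls a gene enriched by a threshold from a ROC curve, which marks 7.58% of 5329 genes with a call with cycloheximide and 4.52% of 4929 without it. In that table ATP4 at 2.84 and ATP5 at 2.07 are called enriched with cycloheximide, on the authors' scale without centring. ATP14 at 0.99 in the authors' deposited table is not called, the lowest value called there being 1.58. Without the drug 0 of 8 members are called in the authors' deposited table, where ATP4 has 0.92 and the lowest value called is 1.24.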

How the data were processed

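Footprint libraries were grouped by sample title, with 1 library a group. The deposited table holds, per the file headers, raw counts of reads per gene, RPKM (reads scaled by the authors to gene length and library size), the authors' log2 enrichment of pulldown over input RPKM, and the MitoProt score. Per the submitters' processing notes CASAVA and sacCer3 were used; neither the aligner nor the handling of multiply mapping reads is stated there. Values of a different BirA fusion fill 5 further columns, which were left out. Genes were called mitochondrial where either annotation column of the deposited table says so (1116 nuclear genes). Coordinates came from the reference gene table, in which 6008 identifiers were found.

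Counts were scaled to nuclear-gene reads, a pseudocount of 0.5 reads was added, and log2 ratios were centred on the median gene with at least 100 reads. Ratios and shares have exact Clopper-Pearson intervals, densities exact Poisson intervals, and differences of enrichment normal intervals on the log scale, all at 95%. No molecular identifiers were counted, so intervals cover counting error alone. With 1 library per group no test was made. The members and gene lists were chosen with earlier results of these data known. Genes named are the members and the listed subunits and factors of the ATP synthase and of complexes III and IV. The genes nearest to the most enriched member are not reported here. YLR346C was chosen after its values were seen. The procedure was tested on simulated data. Alternatives were uncentred library totals, TMM scaling, centring on genes not annotated as mitochondrial, a pseudocount of 1, minimums of 20 and 500 reads, folds of 1.5 and 4, and the authors' values. Python 3.11.15, numpy 2.4.6, pandas 2.3.3, scipy 1.17.1, matplotlib 3.10.9 and edgeR 4.0.16 in R 4.3.3 were used.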

Additional observations from a re-analysis of the deposited data

How the results depend on the processing

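No paired analysis was possible because each group held 1 library. Of the 4 counts of members past the limit, that of enriched members without cycloheximide changed with the limit itself, from 0 to 1 (ATP4) at 1.5-fold. The count for the input ratio changed on library totals, from 0 to 1, where ATP20 stood at 1.03. On the lower side of that ratio 1 member, ATP5 at -0.75, passed at 1.5-fold, as did 1176 of all genes, against 0 members and 560 genes at 2-fold. On library totals and at 4-fold, ATP14 was no longer counted in the enrichment with cycloheximide or in the difference, which left 2 of 3 members. TMM scaling, centring on genes not annotated as mitochondrial, both read minimums, a pseudocount of 1 and the authors' values kept all 4 counts. Over all genes, 4-fold in place of 2-fold left 453 of 682 genes with the drug, 76 of 329 without, 143 of 492 in the difference and 178 of 568 in the input ratio. At 1.5-fold 537 genes passed without the drug and 1122 in the input ratio. On library totals 234 of 5141 genes passed in the difference and 1875 of 5380 in the input ratio. There the higher share of genes past 2-fold was 36.2% in place of 98.4% with the drug, 25.2% in place of 93.9% in the difference and 94.2% in place of 50.4% in the input ratio. Depth limits ATP19 and ATP20 most: the widest interval of a member extended 0.15 log2 units to either side without the drug.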

Other observations

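YLR346C, the other short annotated gene past 2-fold with cycloheximide, had 1444 pulldown and 568 input reads with the drug and 312 pulldown and 184 input reads without it. Its value was 1.34 (1.20 to 1.48) with the drug and had an interval of 0.74 to 1.28 without it, whereas ATP14 stood at 0.04 without the drug. Its MitoProt score was 0.4331.

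The subunits made inside mitochondria had few reads. ATP6 (subunit a) had 10 reads in the pulldown and 40 in the input with cycloheximide, and 16 and 13 without it. OLI1 (subunit c) had 11 and 16 with the drug and 5 in each library without it, and ATP8 had at most 4 reads in a library.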
